A study of Canis lupus familiaris with 8 samples.

Results

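Type I collagen, 2 small leucine-rich proteoglycans and fibrillin-1 were followed in CMT-Star, a doxorubicin-resistant subline, and in CMT-Stylo, the canine mammary carcinoma line it came from. The genes were COL1A1, COL1A2, DCN, BGN and FBN1, taken as every gene probe whose accession maps to them. They make up 5 of the 1458 genes that could be named and 17 of the 43603 gene probes. Of the 17 probes, COL1A2 has 6, COL1A1 and FBN1 have 4 each, DCN has 2 and BGN has 1. The probe of COL1A1 called A_11_P0000019813 was well above background on no array and was not tested, which left 16 of the 26823 tested probes.

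Total RNA was measured on 8 Cy3-labelled Agilent arrays in 4 groups of 2, and n = 2 arrays per group holds for every mean and SE below. Star CSC were cells sorted from CMT-Star as cancer stem cells (CD44+, CD24-/low and ALDH+), Star parent was unsorted CMT-Star, Stylo CSC were cells sorted in the same way from CMT-Stylo, and Stylo parent was unsorted CMT-Stylo. The labels call both Star groups doxorubicin treated and both Stylo groups non treated. CMT-Star was selected from CMT-Stylo by stepwise doxorubicin over months until it resisted 100 nM, and all cells were kept in DMEM with serum. The labels do not say whether either line is a clone or whether doxorubicin was present at harvest. Nor do they say whether the 2 arrays of a group came from separate cultures. The p-values therefore set group differences only against the spread between arrays of the same group, and that spread may be technical.

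Type I collagen is the main fibril-forming collagen of stroma, and its triple helix is built from the chains encoded by COL1A1 and COL1A2. Decorin (DCN) and biglycan (BGN) are closely related secreted proteoglycans. Decorin binds collagen fibrils and limits their sideways growth, and both can bind TGF-beta. Fibrillin-1 (FBN1) polymerises into the microfibrils that carry elastin and hold latent TGF-beta in the matrix. These genes are typical of fibroblasts and other mesenchymal cells, and carcinoma cells that take on mesenchymal traits can also express them.

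The Stylo parent arrays stood apart from the other 6. The 75th percentile of the processed signal, by which each array was scaled, was 88.3 and 69.2 on them, against 296 to 536 elsewhere. All Star arrays lay on slide 2 and all Stylo arrays on slide 1, so line and slide cannot be told apart, while each sorting comparison lies within 1 slide. Of the 17 probes, 13 were well above background on both Star CSC arrays, 13 on both Star parent arrays, 16 on both Stylo CSC arrays and 13 on both Stylo parent arrays. Of 68 combinations of probe and group, 55 were well above background on both arrays, and there the SD between the arrays was 0.001 to 0.485 on the log2 scale, with a median of 0.097. In the other 13 it reached 0.863. The COL1A1 probes A_11_P147258 and A_11_P147113 were well above background in Stylo CSC alone and entered the tests only through that group. All 5 fibroblast markers named on the array (THY1, PDGFRB, S100A4, VIM and DPT) were well above background in every group. Of 4 epithelial markers, KRT14, KRT19, CDH1 and CLDN3, the number well above background on both arrays was 3 in Star CSC, 2 in Star parent, 3 in Stylo CSC and 2 in Stylo parent.

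Levels below are log2 signal relative to the array's 75th percentile, so 0 is the level of that percentile and a step of 1 is a doubling. Each gene is described by its brightest tested probe. The level of one gene's probe cannot be set against another's, because probes differ in brightness.

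The 2 chains of type I collagen did not follow the same order of groups. COL1A1 (probe A_11_P050631) had levels of -2.36 and -2.50 in Star CSC, -1.62 and -1.56 in Star parent, 3.90 and 3.79 in Stylo CSC, and 1.31 and 1.54 in Stylo parent. No groups overlapped, and all 4 Star arrays were below all 4 Stylo arrays. COL1A2 (probe A_11_P201543) had levels of 6.78 and 6.92 in Star CSC, 7.59 and 6.91 in Star parent, 9.13 and 9.23 in Stylo CSC, and 6.23 and 6.07 in Stylo parent. At this probe Stylo parent was the lowest group, Stylo CSC was the highest, and Star CSC and Star parent overlapped. Stylo parent was lowest at every other COL1A2 probe too, but there Star CSC lay below Star parent without overlap. At A_11_P147118 Star parent (6.21 and 6.13) was above Stylo CSC (5.71 and 5.73). A_11_P147268 gave the same order (5.83 and 5.57 against 4.78 and 5.06), while Stylo CSC was highest at the rest.

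The 2 proteoglycans were ordered differently as well. DCN (probe A_11_P146158) had levels of -4.29 and -4.27 in Star CSC, -4.48 and -4.31 in Star parent, 2.67 and 2.76 in Stylo CSC, and 1.07 and 1.07 in Stylo parent. All 4 Star arrays were far below all 4 Stylo arrays, at processed signals of 16.6 to 27.4, against 7.91 to 11.9 for the dimmest spots called well above background on the 8 arrays. BGN (probe A_11_P0000019947) had levels of 1.88 and 1.79 in Star CSC, 2.39 and 2.72 in Star parent, 2.94 and 3.09 in Stylo CSC, and 0.06 and -0.16 in Stylo parent. Stylo parent was the lowest group for BGN, and no groups overlapped.

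FBN1, like BGN, was lowest in Stylo parent and next lowest in Star CSC. Its brightest probe, A_11_P152483, had levels of 3.34 and 3.37 in Star CSC, 4.77 and 4.71 in Star parent, 4.73 and 4.81 in Stylo CSC, and 1.70 and 1.74 in Stylo parent. Star parent and Stylo CSC overlapped at the top, Star CSC was between, and Stylo parent was lowest. The order at the top depended on the probe. Star parent was above Stylo CSC at A_11_P062221 (3.36 and 2.90 against 2.18 and 1.87) and at A_11_P0000023492 (1.18 and 0.84 against 0.45 and 0.30). It was below Stylo CSC at A_11_P197918 (0.36 and 0.31 against 0.76 and 0.40).

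**Figure D1:**
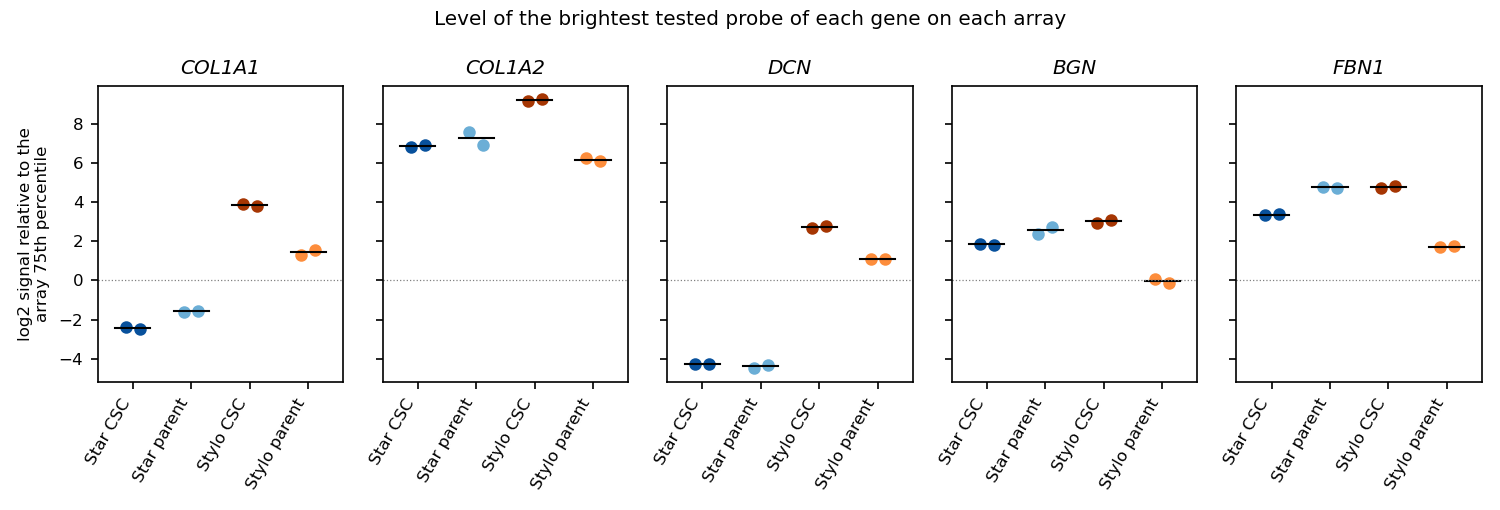
Level of the brightest tested probe of COL1A1, COL1A2, DCN, BGN and FBN1 on each array, as log2 of the signal relative to the array's 75th percentile, with one point per array in the groups Star CSC, Star parent, Stylo CSC and Stylo parent. COL1A1 and DCN are low on all 4 Star arrays, while COL1A2, BGN and FBN1 are lowest on the 2 Stylo parent arrays.

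The first comparison set the resistant subline against the line it came from. COL1A1 and DCN were lower in Star parent than in Stylo parent, while COL1A2, BGN and FBN1 were higher. DCN had the largest fall, with means of -4.40 in Star parent and 1.07 in Stylo parent, a log2 change of -5.47 ± 0.10 (SE, 44.3-fold lower, adjusted p = 4.36e-06). COL1A1 was 8.06-fold lower (log2 change -3.01 ± 0.12, adjusted p = 6.84e-06). FBN1 was 8.12-fold higher (log2 change 3.02 ± 0.09, adjusted p = 4.79e-06) and BGN was 6.07-fold higher (2.60 ± 0.15, adjusted p = 2.09e-05). COL1A2 was 2.14-fold higher (1.1 ± 0.23, adjusted p = 0.00504), but its change was 0.75 without Star parent replicate 1, under the 2-fold threshold of a call, and 1.1 to 2.84 over the scalings and background corrections.

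A gene or probe was called where its adjusted p, over all probes tested, was below 0.05 and its change reached 2-fold. By this rule 3 of the 5 genes were higher and 2 lower, and 10 of 16 probes were higher and 5 lower. The 5 include both COL1A1 probes that stood above background in Stylo CSC alone, so neither group compared here measured them. Over the other 14 probes 10 were higher and 3 lower. Over all tested probes 56.5% were called, with 24.6% higher and 31.9% lower, so that a call in this comparison was common. The median log2 change of the 16 probes was 2.05, against -0.20 over all tested probes. The size of the DCN fall depended on the background correction and was -2.55 with normexp correction, while COL1A1 ran from -1.81 to -3.08 over the scalings and background corrections. COL1A1 and the 3 higher genes were called in the same directions with normexp. The dimmer DCN probe, A_11_P0000019946, fell at least 10.3-fold, a bound because in Star parent it did not stand well above background. The FBN1 probe A_11_P0000023492, likewise dim in Stylo parent, was at least 17.3-fold higher in Star parent. Both bounds rest on the main background correction. Over the scalings and background corrections the change of that DCN probe ran to -2.05. With normexp correction that FBN1 probe changed by 0.64 and was not called, nor was the FBN1 probe A_11_P197918 (0.82).

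Because the Stylo parent arrays were dim, differences between 2 genes on the same array were tested too, since any constant scaling of an array cancels in them. For 5 gene pairs in 5 comparisons, limma's p-values were adjusted over the pairs together with all tested probes. A background error does not cancel in this way. COL1A2 relative to COL1A1 was 17.2-fold higher in Star parent than in Stylo parent (log2 difference 4.11 ± 0.28, adjusted p = 3.58e-05), and 27.2-fold to 53.8-fold higher with normexp correction, quantile normalization or cyclic loess. BGN relative to DCN was 269-fold higher (8.07 ± 0.12, adjusted p = 3.02e-06), but 33.2-fold with normexp correction (5.05 ± 0.21). FBN1 relative to BGN differed by 0.42 (95% interval 0.02 to 0.83, adjusted p = 0.0569), and by 0.72 to 1.36 under those 3 settings, where its adjusted p was at most 0.0101.

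**Figure D2:**
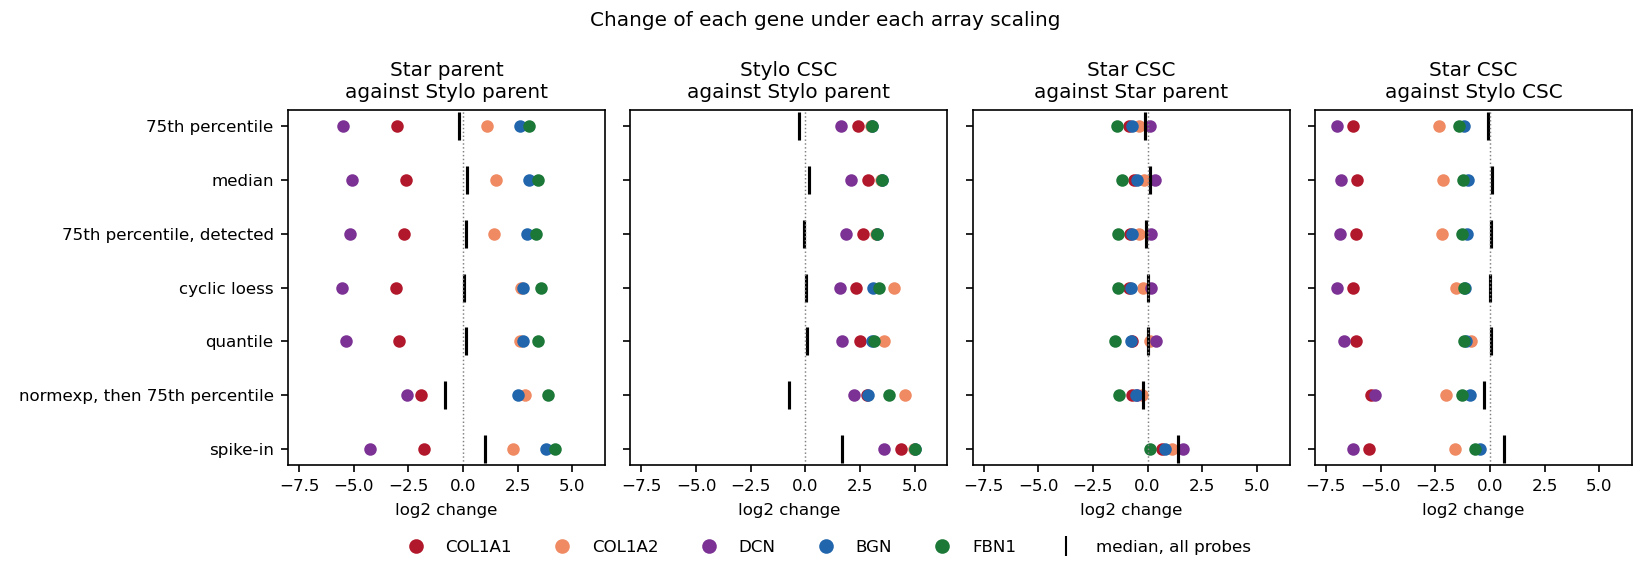
Log2 change of the brightest probe of each of the 5 genes in each comparison of groups under several scalings. The median of all tested probes is a black tick. In Star parent against Stylo parent, COL1A1 and DCN lie below 0 and COL1A2, BGN and FBN1 above it under every scaling shown, while in Star CSC against Star parent all 5 genes are above 0 with spike-in scaling.

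Sorting of CMT-Stylo went with higher levels of every gene of the group. In Stylo CSC against Stylo parent, FBN1 was 8.30-fold higher (log2 change 3.05 ± 0.09, adjusted p = 1.21e-05). BGN was 8.36-fold higher (3.06 ± 0.15, adjusted p = 1.81e-05) and COL1A2 was 8.14-fold higher (3.03 ± 0.23, adjusted p = 6.86e-05). COL1A1 was 5.35-fold higher (2.42 ± 0.12, adjusted p = 1.79e-05) and DCN was 3.12-fold higher (1.64 ± 0.10, adjusted p = 3.42e-05). Over the scalings and background corrections the changes reached 5.02 for FBN1, 5.03 for BGN, 4.99 for COL1A2, 4.38 for COL1A1 and 3.6 for DCN, in each case with spike-in scaling, so the folds printed here lie near the low end. The rise of DCN was smaller than that of BGN by a within-array difference of 1.42 ± 0.12 (adjusted p = 0.000111), or 0.66 with normexp correction. FBN1 relative to BGN changed by -0.01 (95% interval -0.41 to 0.39), but by 0.95 with normexp correction (adjusted p = 0.00281).

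In this comparison all 5 genes and 15 of 16 probes were called higher and 0 were called lower. Of all tested probes 54.0% were called, 21.9% higher and 32.1% lower. The remaining probe, A_11_P147258 of COL1A1, changed by 0.15 ± 0.39 (adjusted p = 0.74) and was too dim in Stylo parent to stand well above background. Without it and A_11_P147113, 14 of 14 probes were higher. With normexp correction the FBN1 probes A_11_P197918 (0.98) and A_11_P0000023492 (0.33) and the DCN probe A_11_P0000019946 (-0.14) were not called. The COL1A1 probes A_11_P147258 (-1.610, adjusted p = 3.8e-05) and A_11_P147113 (-1.293, adjusted p = 0.000129) then met the rule for a lower call. The median log2 change was 2.81 over the 16 probes and -0.28 over all tested probes. This comparison rests wholly on the dim Stylo parent arrays. Leaving out 1 of the 4 arrays at a time gave values of 1.60 to 1.69 for DCN and 3.01 to 3.10 for FBN1. Without Stylo parent replicate 1 or 2 no gene lost its call.

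The same sorting applied to CMT-Star gave a different picture. FBN1 was 2.61-fold lower in Star CSC than in Star parent (log2 change -1.39 ± 0.09, adjusted p = 0.000738), but its change was 0.12 with spike-in scaling. All 4 FBN1 probes were called lower, with log2 changes between -1.39 and -2.54. COL1A1 changed by -0.84 ± 0.12 (adjusted p = 0.00583) and BGN by -0.72 ± 0.15 (adjusted p = 0.019), both under the 2-fold threshold. COL1A2 changed by -0.40 ± 0.23 (95% interval -0.96 to 0.16, adjusted p = 0.226) and DCN by 0.12 ± 0.10 (95% interval -0.13 to 0.36, adjusted p = 0.416).

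Of the 5 genes, 0 were called higher and 1 lower, and of the 16 probes 0 were higher and 6 lower. Of all tested probes 9.72% were called, 3.22% higher and 6.51% lower. Besides the FBN1 probes, those called were A_11_P147268 (-1.12 ± 0.18) and A_11_P145878 (-1.34 ± 0.20) of COL1A2. Directions here depended on the scaling. With spike-in scaling, which sets each array by its added control RNA, the median of all tested probes was 1.41 instead of -0.10, and 20259 probes were called higher and 187 lower, against 863 and 1745 at the 75th percentile. COL1A2 and DCN were then called higher (1.11 and 1.62). The place of a gene among the tested probes is the same under both: the change of FBN1 lay above 4.49% of them, and those of COL1A1 and DCN above 12.1% and 65.4%.

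**Figure D3:**
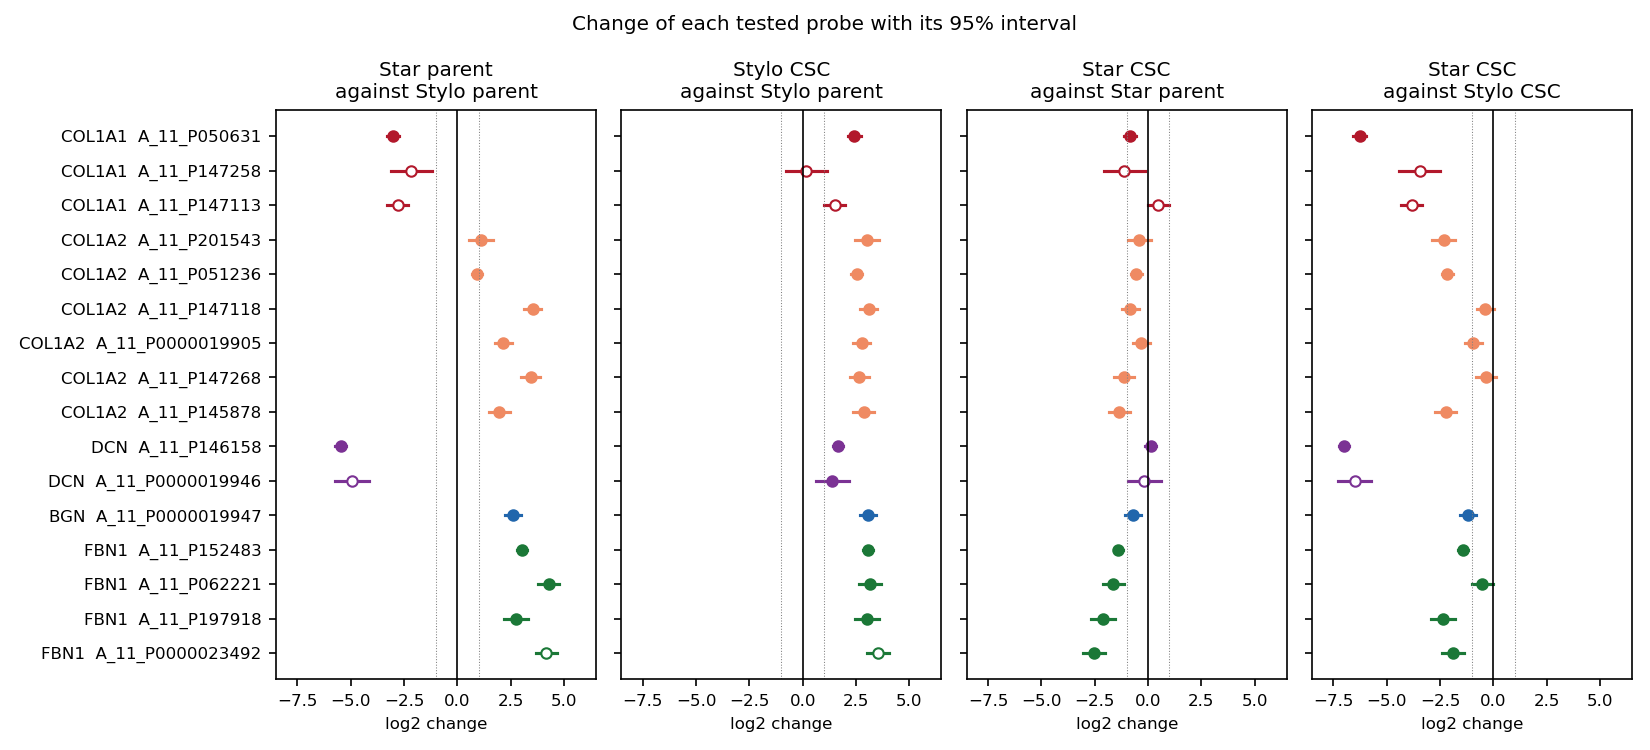
Log2 change of each of the 16 tested probes in each comparison of groups, grouped by gene. Dotted lines mark the 2-fold threshold, and hollow points mark a compared group not well above background. In Stylo CSC against Stylo parent 15 of 16 probes were called higher, and in Star CSC against Stylo CSC 12 of 16 were called lower.

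The sorted cells of the 2 lines were furthest apart in DCN and COL1A1. In Star CSC against Stylo CSC, DCN was 128-fold lower (log2 change -7.00 ± 0.10, adjusted p = 7e-06), with processed signals of 27.4 and 24.0 in Star CSC against 1969 and 2009 in Stylo CSC. COL1A1 was 77.2-fold lower (-6.27 ± 0.12, adjusted p = 7e-06). Over the scalings and background corrections DCN ran from -7.00 to -5.26 and COL1A1 from -6.28 to -5.43. Only 0.0298% of tested probes fell further than the brightest DCN probe and 0.0671% further than the brightest COL1A1 probe. The dimmer COL1A1 probes A_11_P147258 and A_11_P147113 fell at least 4.69-fold and 7.23-fold, bounds because neither was well above background in Star CSC. With normexp correction A_11_P147258 changed by -0.876 and was not called. Changes of the other genes were smaller: COL1A2 was 5.03-fold lower (-2.33 ± 0.23, adjusted p = 0.000489), FBN1 2.67-fold lower (-1.42 ± 0.09, adjusted p = 0.000122) and BGN 2.27-fold lower (-1.18 ± 0.15, adjusted p = 0.00133).

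All 5 genes and 12 of 16 probes were called lower and 0 higher. The 12 include the 2 COL1A1 probes that were tested only because Stylo CSC is bright, and of the other 14 probes 10 were lower. Of all tested probes 29.4% were called, 12.6% higher and 16.9% lower. The arrays compared do not include the dim ones, and with both Stylo parent arrays left out all 5 genes were again called lower. The calls of DCN and COL1A1 held under each of the 23 other settings. The remaining 3 depended on the scaling: COL1A2 was not called with quantile normalization (-0.87, adjusted p = 0.0527), BGN was not called with median scaling (-0.98), normexp correction (-0.92) or spike-in scaling (-0.43), and FBN1 was not called with spike-in scaling (-0.67). Within arrays, COL1A2 relative to COL1A1 was 15.4-fold higher in Star CSC than in Stylo CSC (3.94 ± 0.28, adjusted p = 0.000162), and BGN relative to DCN was 56.3-fold higher (5.81 ± 0.12, adjusted p = 6.99e-06), or 20.2-fold with normexp correction.

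The change with sorting differed between the lines for every gene. The log2 change in Star minus that in Stylo was -4.44 ± 0.13 for FBN1 (adjusted p = 4.92e-05), -3.78 ± 0.21 for BGN (adjusted p = 6.33e-05) and -3.43 ± 0.32 for COL1A2 (adjusted p = 0.00027). It was -3.26 ± 0.17 for COL1A1 (adjusted p = 5.33e-05) and -1.53 ± 0.14 for DCN (adjusted p = 0.000271). By this test 5 of 5 genes and 15 of 16 probes were called lower and 0 higher. Of all tested probes 52.1% were called, 28.2% higher and 24.0% lower. The median was -3.60 over the 16 probes and 0.15 over all tested probes. The 16 include the 2 COL1A1 probes that were tested only because Stylo CSC is bright. Without them 14 of 14 probes were lower, with a median of -3.78. All 5 genes kept this call under each of the 22 other settings in which the difference could be computed, and the difference includes the dim Stylo parent arrays throughout.

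**Figure D4:**
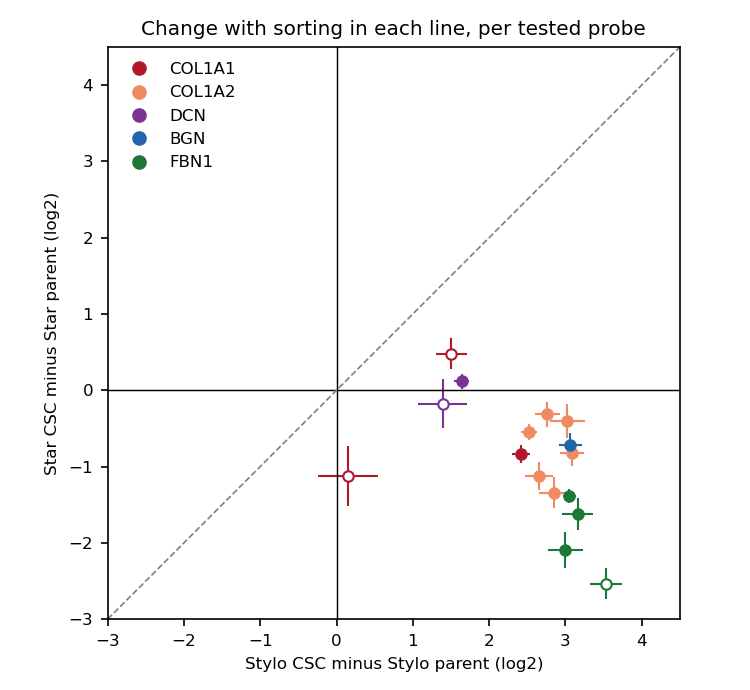
Log2 change with sorting in CMT-Star against the log2 change with sorting in CMT-Stylo for the 16 tested probes, with SE bars, a dashed line of equal change and hollow points where a group was not well above background. All 16 probes lie below the dashed line, with changes in Stylo of 0.15 to 3.53 and in Star of -2.54 to 0.48.

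Probes of the same gene differed in the size of their changes. For COL1A2 in Star parent against Stylo parent, the log2 change was 1.1 and 0.91 at the 2 brightest probes and 1.96 to 3.53 at the other 4, and the probe at 0.91 (A_11_P051236, adjusted p = 0.000309) was under the 2-fold threshold. That probe was called higher under each of the 6 other scalings and background corrections, at 1.235 to 2.496. In Star CSC against Stylo CSC, 3 COL1A2 probes were called lower (-2.15 to -2.33) and 3 were not (-0.93, -0.38 and -0.34). The 2 smallest of these changes were above 0 with quantile normalization (0.26 and 0.08), cyclic loess and spike-in scaling. The A_11_P051236 sequence was printed in 5 spots per array, and their signals varied by 1.74% to 13.1% (coefficient of variation). The cause of the disagreement between probes was not tested. For FBN1 the change in Star CSC against Stylo CSC was -0.52 ± 0.21 at A_11_P062221 (adjusted p = 0.0738) and between -1.42 and -2.34 at the other 3 probes. Which transcript region each probe matches was not analysed here.

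Few other genes of the matrix could be named. Of 113 listed genes for other collagens, small leucine-rich proteoglycans, other proteoglycans, elastic fibres, collagen processing, the TGF-beta pathway and matrix glycoproteins, 13 had a named probe and 9 were tested, with none among the elastic fibre genes or the other small leucine-rich proteoglycans. In Star parent against Stylo parent 3 of the 9 were higher and 3 lower. In Stylo CSC against Stylo parent 1 was higher and 6 were lower, in Star CSC against Star parent 1 was higher and 5 were lower, and in Star CSC against Stylo CSC 2 were higher and 3 lower. The 6 include COL2A1, which was not well above background in either Stylo group. Of all tested probes, 24.6%, 21.9%, 3.22% and 12.6% were called higher in these comparisons, taken in that order. Those called lower were 31.9%, 32.1%, 6.51% and 16.9%. Their median change in Stylo CSC against Stylo parent was -1.1, where that of the 5 genes described here was 3.03 and that of all tested probes -0.28.

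PLOD1, a lysyl hydroxylase that modifies collagen chains, had changes of 1.57 ± 0.15 in Star parent against Stylo parent, 2.45 ± 0.15 in Stylo CSC against Stylo parent and -1.42 ± 0.15 in Star CSC against Stylo CSC, all called. In Star CSC against Star parent it changed by -0.54 ± 0.15, under the threshold. SERPINH1, the collagen chaperone of the endoplasmic reticulum, was called in no comparison, with changes between -0.91 and -0.13. DPT, which encodes dermatopontin, a protein that binds decorin, was higher in Star CSC than in Star parent (2.16 ± 0.16) and lower in Stylo CSC than in Stylo parent (-1.96 ± 0.16, or 0.003 with spike-in scaling). Spike-in scaling also ended the call of PLOD1 in Star CSC against Stylo CSC.

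Tenascin C (TNC), a matrix glycoprotein of remodelling tissue, was higher in Star parent than in Stylo parent (1.55 ± 0.14, or 0.88 with normexp correction, where it was not called) and lower in Star CSC than in Star parent (-4.04 ± 0.14). In Stylo CSC against Stylo parent its change was -1.1 ± 0.14, a call lost with median scaling, with the detected-probe percentile (-0.90) and without Stylo parent replicate 2 and turned by spike-in scaling (0.86). COL7A1, the collagen of anchoring fibrils, was called lower in all 4 comparisons of groups, between -1.86 and -2.82, but the call in Star CSC against Star parent (adjusted p = 0.0432) was lost with most scalings and without any 1 of 7 arrays. The call in Stylo CSC against Stylo parent was lost with spike-in scaling (-0.45), and that in Star CSC against Stylo CSC with normexp correction (-0.76), with only the arrays compared in the fit and without Stylo CSC replicate 1 or replicate 2 (adjusted p = 0.0542 and 0.0521). The cartilage collagen COL2A1 was lower in Star CSC than in Star parent (-1.33 ± 0.16, or 0.18 with spike-in scaling). It was at least 1.17-fold higher in Star parent than in Stylo parent and at least 1.39-fold higher in Star CSC than in Stylo CSC, not being well above background in either Stylo group, and both changes were below 0 with normexp correction (-1.40 and -0.16). COL9A2, another cartilage collagen, was lower in Star CSC than in Star parent (-1.19 ± 0.24, or 0.32 with spike-in scaling). ACAN, the cartilage proteoglycan aggrecan, was lower in Star parent (-1.40 ± 0.31) and in Stylo CSC (-1.0 ± 0.31, or 0.96 with spike-in scaling) than in Stylo parent, and both calls were lost with median scaling and without Stylo parent replicate 2. Spike-in scaling also ended the Star parent call (-0.19). The Stylo CSC call was also lost with quantile normalization (-0.69), the detected-probe percentile (-0.80) and cyclic loess (-0.37). It was lost too with outlier-marked spots kept, with the deposited matrix, with only the arrays compared in the fit and without either Stylo CSC array. The COL9A2 call was lost with quantile normalization, median scaling, cyclic loess and normexp correction, and without Star CSC replicate 1 or Star parent replicate 2.

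Markers of mesenchymal cells differed between the groups as well. The summed level of the 5 fibroblast markers was 330 to 358 times the array's 75th percentile in Star CSC, 438 to 455 times in Star parent, 1150 to 1210 times in Stylo CSC and 2160 to 2490 times in Stylo parent. S100A4 and VIM carry this sum, S100A4 with 44.5%, 43.6%, 36.8% and 73% of it in those groups in that order, so it does not describe the other 3 markers. In Star parent against Stylo parent 0 of the 5 were higher and 4 lower, and in Stylo CSC against Stylo parent 1 was higher and 3 lower. In Star CSC against Star parent 1 was higher and 0 lower, and in Star CSC against Stylo CSC 1 was higher and 3 lower. Over all tested probes the share called either way was 56.5%, 54.0%, 9.72% and 29.4%, taken in that order. Calls were thus common wherever Stylo parent was compared, for these markers and for the epithelial ones below. The one higher in Stylo CSC than in Stylo parent was THY1 (log2 change 2.73, with another THY1 probe called lower), while S100A4 (-1.96), DPT (-1.96) and PDGFRB (-1.09) were lower there and VIM changed by 0.21. In Star CSC against Stylo CSC, THY1 (-2.82), VIM (-1.95) and S100A4 (-1.50) were lower and DPT (2.05) was higher. The marker changes printed here are those at the 75th percentile scaling alone. In these bulk samples fewer cells of a type and less RNA per cell cannot be told apart, and the part of such markers in the levels of the 5 genes was not tested. The 4 epithelial markers summed to 0.859 to 0.945 times the 75th percentile in Star CSC, 0.817 to 0.974 in Star parent, 2.27 to 2.42 in Stylo CSC and 3.41 to 4.16 in Stylo parent. These sums do not describe each marker. In Star parent against Stylo parent, and in Stylo CSC against Stylo parent, 1 of the 4 was called higher and 2 lower. In the second, CDH1 was at least 6.12-fold higher, being dim in Stylo parent, and CLDN3 was lower (log2 change -2.26). KRT19 was also called lower there (-1.95) but was dim in both groups. In Star CSC against Star parent 1 was higher and 0 lower. In Star CSC against Stylo CSC 1 was higher and 3 lower. The endothelial markers KDR and VWF summed to 0.56 to 2.72 over the 8 arrays, the leukocyte markers CD79A and TYROBP to 0.0336 to 0.135, and DES, the smooth muscle marker on the array, lay between 0.0103 and 0.0458.

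Genes with the most similar pattern were taken as the 3 with the highest Pearson correlation of log2 level over the 8 arrays among 724 named genes. The 8 arrays share 4 groups, 1 scaling and the dim Stylo parent pair, so r is a description. DCN was closest to MAL, a membrane raft protein (r = 0.9997), which had mean levels of -4.34 in Star CSC, -4.41 in Star parent, 3.36 in Stylo CSC and 1.37 in Stylo parent. Next came the RNA helicase DDX5 (r = 0.9915) and vimentin, VIM (r = 0.9756). COL1A1 was closest to the glutamate transporter SLC1A3 (r = 0.9841), the tropomyosin TPM3 (r = 0.982) and again MAL (r = 0.9808). After quantile normalization VIM no longer resembled DCN (r = -0.10), while MAL and DDX5 did.

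BGN and FBN1 shared their closest gene, the glucose transporter SLC2A1 (r = 0.9904 with BGN and 0.9891 with FBN1). BGN was next to the lysosomal enzymes PLA2G15 (r = 0.9794) and CTSA (r = 0.9784), and FBN1 to the DNA repair kinase PRKDC (r = 0.9832) and the peptide hormone gene ADM (r = 0.9813). COL1A2 was closest to N-cadherin, CDH2 (r = 0.9872), then DHRS4 (r = 0.974) and the drug efflux pump ABCC1 (r = 0.9734). After quantile normalization r was 0.726 between COL1A2 and ABCC1 and 0.914 between COL1A2 and CDH2.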

How the data were processed

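Agilent Feature Extraction 11.5.1.1 quantified the arrays (submitters' processing notes and file headers). The deposited scanner files give each spot's processed signal as an intensity, with flags. The deposited series matrix gives log2 values that match the scaling used here up to 1 constant per probe, with column medians of -0.265 to 1.007. Control and outlier-marked spots were dropped, and a probe's mean log2 signal was taken relative to the array's 75th percentile. No array had a saturated spot (0). Tested probes stood well above background on both arrays of 1 group or more. Where 1 compared group did not, a bound sets the bright group's mean against the higher of the dim probe's signal and the lowest signal well above background on each array.

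Groups come from the sample titles. RefSeq gene names (table of assembly UU_Cfam_GSD_1.0) were given to 2353 of 43603 probes (5.40%). The file headers use another build, so coordinates were not used. The 4 group means were fitted on 8 arrays with limma 3.58.1 (R 4.3.3) and 5 contrasts, two-sided, with Benjamini-Hochberg adjustment over the tested probes, and the fit was tested on simulated data. Genes named were the 5 members, the called genes of each list (at most 3 per list and comparison) and the 3 genes most similar to each member. One called gene picked by this rule is not reported here. SERPINH1 was named after its values were seen. The members and lists were chosen with earlier results of these data known. Alternatives covered scaling, normexp correction, filters, thresholds, variance models, the deposited matrix, blocks and left-out arrays. Deviations of same-numbered arrays correlated at -0.068 to 0.073, and the numbers were not taken as pairs. The number of arrays limits the precision.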

Additional observations from a re-analysis of the deposited data

Results flagged for a closer look

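The change with sorting differed between CMT-Star and CMT-Stylo, by limma's test of the difference, at 15 of the 16 tested probes. The log2 change in Star minus that in Stylo was -4.44, -4.786, -5.094 and -6.067 at the 4 FBN1 probes, -3.782 at the BGN probe, and -3.427, -3.067, -3.912, -3.081, -3.779 and -4.193 at the 6 COL1A2 probes. It was -3.261 and -1.024 at 2 COL1A1 probes and -1.526 and -1.565 at the 2 DCN probes. Over all tested probes 52.1% were called in this test, and it includes the dim Stylo parent arrays. The COL1A1 value of -1.024 came from probe A_11_P147113, which was not well above background in Star CSC, Star parent or Stylo parent. It was 0.78 with normexp correction, and its call was lost, at -0.838 to -0.927, without replicate 1 of any of the 4 groups. The DCN value of -1.565 came from probe A_11_P0000019946, which was not well above background in either Star group. It was -0.465 with normexp correction, and its call was lost, at -1.367 to -1.627, without Star parent replicate 1, Stylo parent replicate 1 or either Stylo CSC array.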

How the results depend on the processing

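Of 1804 recomputed log2 changes at the 16 probes, 1724 kept their direction and side of the threshold, 27 lost a call, 21 gained one and 32 changed sign. The causes were not tested. With spike-in scaling 2 members were called higher and 0 lower in Star CSC against Star parent, and 3 lower in Star CSC against Stylo CSC. With no fold threshold 3 members were lower in Star CSC against Star parent. Signal over background limits the dim probes of COL1A1, DCN and FBN1.

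Changes of opposite sign with spike-in scaling were, in Star CSC against Star parent, 0.667 and 0.385 for COL1A1, 1.106, 0.962, 0.681, 1.192, 0.383 and 0.166 for COL1A2, 1.333 for DCN, 0.790 for BGN, 0.121 for FBN1, 0.179 for COL2A1 and 0.318 for COL9A2. In Stylo CSC against Stylo parent they were 0.433 for COL2A1, 0.960 for ACAN, 0.861 for TNC and 0.003 for DPT, and in Star CSC against Stylo CSC 0.373 and 0.407 for COL1A2 and 0.233 for FBN1. Quantile normalization gave 0.050 for COL2A1 in Stylo CSC against Stylo parent, 0.098 for COL1A2 and 0.160 for DCN in Star CSC against Star parent, and 0.264 and 0.084 for COL1A2 in Star CSC against Stylo CSC, where cyclic loess gave 0.047 and 0.003. The dimmer DCN probe in Star CSC against Star parent gave 0.058 with median scaling, 0.146 with cyclic loess and -0.624 to 0.274 with 1 array left out (0.023 without Star parent replicate 1). Normexp gave -1.398 for COL2A1 in Star parent against Stylo parent, -0.157 for it in Star CSC against Stylo CSC, -1.610 and -1.293 for COL1A1 and -0.139 for DCN in Stylo CSC against Stylo parent, -0.512 for COL1A1 and -0.482 for DCN in Star CSC against Star parent, and 1.011 and 0.781 for COL1A1 in the difference between lines. COL1A1 in Stylo CSC against Stylo parent ran from -0.048 (without Stylo CSC replicate 1) to 0.352 at its dim probe. FBN1 relative to BGN in Stylo CSC against Stylo parent gave 0.10, 0.27 and 0.95 with quantile normalization, cyclic loess and normexp (added after seeing the data).

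Over all probes called, with the main count in brackets, spike-in scaling gave 13411 (6600) higher and 3490 (8567) lower in Star parent against Stylo parent, 17612 (5879) and 526 (8604) in Stylo CSC against Stylo parent, 20259 (863) and 187 (1745) in Star CSC against Star parent, 9250 (3376) and 1976 (4521) in Star CSC against Stylo CSC, and 4622 (7554) higher between lines. In the same order of comparisons normexp gave 4036 higher, no change over 1.5 times, 372 and 771, 1413 and 2606, and 4149 (6433) lower. Requiring all 8 arrays above background gave 3892 higher, 3764 higher, 394 and 945, 1525 higher, and 4153 lower. No filter gave 20140 lower, 22764 lower and, between lines, 15539 higher. In Star CSC against Star parent median scaling gave 1608 and 1130 and no fold threshold 3360 and 4562, and in Star CSC against Stylo CSC the last gave 6774 and 8514.

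The replicate block changed no call of a member, with 6589 probes higher and 8558 lower in Star parent against Stylo parent. Without 1 array, or both Stylo parent arrays (chosen after seeing the data, as was keeping outlier-marked spots), members called did not change, except 2 higher in place of 3 in Star parent against Stylo parent without Star parent replicate 1.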
